A study of Mus musculus with 3 samples.

Results

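The INK4 and CIP/KIP genes encode the inhibitors of the cyclin-dependent kinases that drive a cell through the division cycle. The family has 7 members here, 4 INK4 genes (Cdkn2a, Cdkn2b, Cdkn2c and Cdkn2d) and 3 CIP/KIP genes (Cdkn1a, Cdkn1b and Cdkn1c), of 22908 genes that the array could be matched to by name. Every non-control probe whose RefSeq transcript belongs to 1 of these genes was taken, which gave 10 probes of 56605. The family was chosen with the tumours' values in view, so the levels of its members and their differences between genotypes are a description and carry no test. All 7 genes had a probe well above background on at least 1 array, and 8 of the 10 probes were above it on all 3 arrays.

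RNA came from splenic tumours of male mice aged 10 weeks, with 1 array for each of 3 tumours. The groups were LSD1 × p53+/− (2 tumours, numbered 2 and 3, called LSD1 tumours here) and p53+/− (1 tumour, called the p53 tumour). All 3 tumours thus shared the p53+/− genotype, that is, haploinsufficiency for p53, and a p53 wild-type tumour was not analysed here. What LSD1 stands for in the other genotype (a transgene, a deletion or another allele) is not given in the labels, nor is which promoter or cell type it acts in, nor whether the numbers name mice or lines. The growth protocol speaks of splenic cells where the tissue label says tumour, and no pooling of animals is stated.

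INK4 proteins bind the kinases CDK4 and CDK6 and keep them from pairing with D-type cyclins. CIP/KIP proteins bind assembled cyclin and kinase complexes, above all those of CDK2 with cyclins E and A, and both families thereby keep the RB protein in the form that holds back E2F and entry into S phase. In mice Cdkn2a also encodes p19ARF, which binds MDM2 and so protects p53 from breakdown, and loss of the Cdkn2a locus or of p53 is a common step in mouse lymphoid tumours.

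Cdkn2a has separate promoters for its transcripts, and the family differs in how its promoters are built. RefSeq promoter windows of assembly GRCm38.p6, from 250 bases before to 50 bases after each start, were found for 6 of the 7 members, 9 windows in all. The 4 shown belong to the members on which the results below turn: both starts of Cdkn2a, its neighbour Cdkn2b, and the start of Cdkn1a that holds an element bound by p53. The Cdkn2a windows lie on the minus strand at chr4:89294570-89294869, the outer start, which by the textbook arrangement of the gene serves p19ARF, and at chr4:89282143-89282442, the inner start, which serves p16INK4a. Those of Cdkn2b and Cdkn1a are at chr4:89310983-89311282 on the minus strand and chr17:29090729-29091028 on the plus strand. Capitals mark GGGCGG on either strand, the core of an Sp1 box, and in Cdkn1a the p53 element, read 5′ to 3′.
Cdkn2a, outer start: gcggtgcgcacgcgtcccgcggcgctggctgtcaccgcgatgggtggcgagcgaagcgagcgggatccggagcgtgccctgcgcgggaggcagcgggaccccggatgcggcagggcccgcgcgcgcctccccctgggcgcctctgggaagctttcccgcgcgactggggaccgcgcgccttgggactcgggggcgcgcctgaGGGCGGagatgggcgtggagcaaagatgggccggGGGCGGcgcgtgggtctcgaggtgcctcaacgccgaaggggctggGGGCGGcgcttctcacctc
Cdkn2a, inner start: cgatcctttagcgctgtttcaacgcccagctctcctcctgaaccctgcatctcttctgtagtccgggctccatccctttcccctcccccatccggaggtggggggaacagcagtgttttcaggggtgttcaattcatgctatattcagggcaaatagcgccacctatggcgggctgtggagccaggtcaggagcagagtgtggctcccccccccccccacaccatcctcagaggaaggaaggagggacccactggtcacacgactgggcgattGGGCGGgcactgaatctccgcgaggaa
Cdkn2b: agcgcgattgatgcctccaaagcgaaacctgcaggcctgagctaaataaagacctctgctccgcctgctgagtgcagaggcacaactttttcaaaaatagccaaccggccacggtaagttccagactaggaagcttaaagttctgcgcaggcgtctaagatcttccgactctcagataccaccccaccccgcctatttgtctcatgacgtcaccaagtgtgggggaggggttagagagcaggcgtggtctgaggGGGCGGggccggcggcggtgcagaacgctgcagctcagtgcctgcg
Cdkn1a: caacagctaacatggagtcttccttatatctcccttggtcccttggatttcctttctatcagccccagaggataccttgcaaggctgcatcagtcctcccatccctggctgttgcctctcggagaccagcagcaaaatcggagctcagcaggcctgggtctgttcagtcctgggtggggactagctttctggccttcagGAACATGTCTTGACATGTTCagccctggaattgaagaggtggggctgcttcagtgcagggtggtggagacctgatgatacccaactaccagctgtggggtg
The outer Cdkn2a window held 3 GGGCGG, 45 CpG dinucleotides and 77.0% G and C, more CpG than 98.1% of 32851 promoter windows. Its inner window held 1 GGGCGG, 12 CpG and 60.3% G and C, and the Cdkn2b window 1 GGGCGG, 18 CpG and 57.7%. The median window had 7 CpG and 52.7% G and C, and 35.7% of all windows held at least 1 GGGCGG. The Cdkn1a window had no GGGCGG, 2 CpG and a p53 element, spelled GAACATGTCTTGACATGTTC. That element was searched on both strands as 2 adjacent half-sites without a spacer, with the C and G of each core exact and at most 1 mismatch elsewhere, and 0.067% of all windows (22) held one. This start was chosen for its element, and the other Cdkn1a window, at chr17:29093519-29093818, held no such element, 2 GGGCGG and 23 CpG. None of the 4 windows held CACGTG (7.15% of all windows) or TATAAA (13.6%), each searched on both strands. These are matches of letters and were not measured as binding sites.

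Levels are given as multiples of the 75th percentile of the array's own intensities, and log2 differences are LSD1 tumour minus p53 tumour. That percentile was 712 and 554 intensity units on the arrays of LSD1 tumours 2 and 3 and 608 on that of the p53 tumour. No probe was saturated, and 52.8%, 51.5% and 55.6% of spots were well above background in the same order. LSD1 tumour 3 and the p53 tumour were on slide 1 and scan 1 and LSD1 tumour 2 on slide 2 and scan 2, so a value within slide 1 is that of LSD1 tumour 3. Repeated spots of 1 probe on 1 array had a median SD of 0.041, 0.039 and 0.040 log2 units. The software's own error for a single bright spot was about 10.0% of its value, and differences are set against that error and against the gap between the LSD1 tumours. Precision is limited by there being 3 arrays. Kdm1a, which encodes LSD1, differed by 0.65 and 0.22 log2 in LSD1 tumours 2 and 3, and over 6 scalings its value in LSD1 tumour 3 ranged from -0.14 to 0.42. Trp53 differed by -0.59 and -0.30.

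Cdkn2a stood far above the p53 tumour in both LSD1 tumours. Its brighter probe, A_55_P2008437 (transcript NM_009877), measured 25.2 and 23.5 times the array's 75th percentile in LSD1 tumours 2 and 3, against 0.123 in the p53 tumour. On the intensity scale these were 17919 and 13007 units in the LSD1 tumours and 74.9 ± 10.5 (software error) in the p53 tumour. Both LSD1 tumours were bright, and the p53 tumour was near the bottom of the measurable range but flagged well above background. The p53 tumour lay below both LSD1 tumours, as it did by any size for 38.9% of the 15240 genes tested. The log2 differences were 7.68 and 7.57, or 204-fold and 191-fold, with a spot error of 0.25 log2. On the log2 scale the LSD1 tumours averaged 4.60 ± 0.07 (SD, n = 2) and the p53 tumour -3.02. The gap within the LSD1 pair, 0.10 log2, was inside the spot error of 0.20 log2 for that pair. Their SD therefore gives no scale for the difference from the p53 tumour. In bulk RNA, fewer cells of a type and less RNA per cell cannot be told apart, here as for every gene that follows.

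The dimmer Cdkn2a probe, A_51_P144813, carries the same transcript accession and gave the same order of tumours. It measured 0.973 and 0.956 times the 75th percentile in LSD1 tumours 2 and 3, against 0.011 in the p53 tumour, where it was not well above background. The median pixel intensities of its spots were 803 and 640.5 in the LSD1 tumours and 36 in the p53 tumour, over local backgrounds of 33, 35 and 32. In the p53 tumour the spot was thus close to its local background. Against the lowest intensity well above background on that array, 32.4, the probe was higher by at least 18.2-fold in LSD1 tumour 2 and by at least 17.9-fold in LSD1 tumour 3, at this scaling. With normexp background correction its log2 differences were 3.46 and 3.47, below those bounds. Which of the p16INK4a and p19ARF transcripts either probe reads is not given in the sources used here, so the values are for the gene as a whole.

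**Figure D1:**
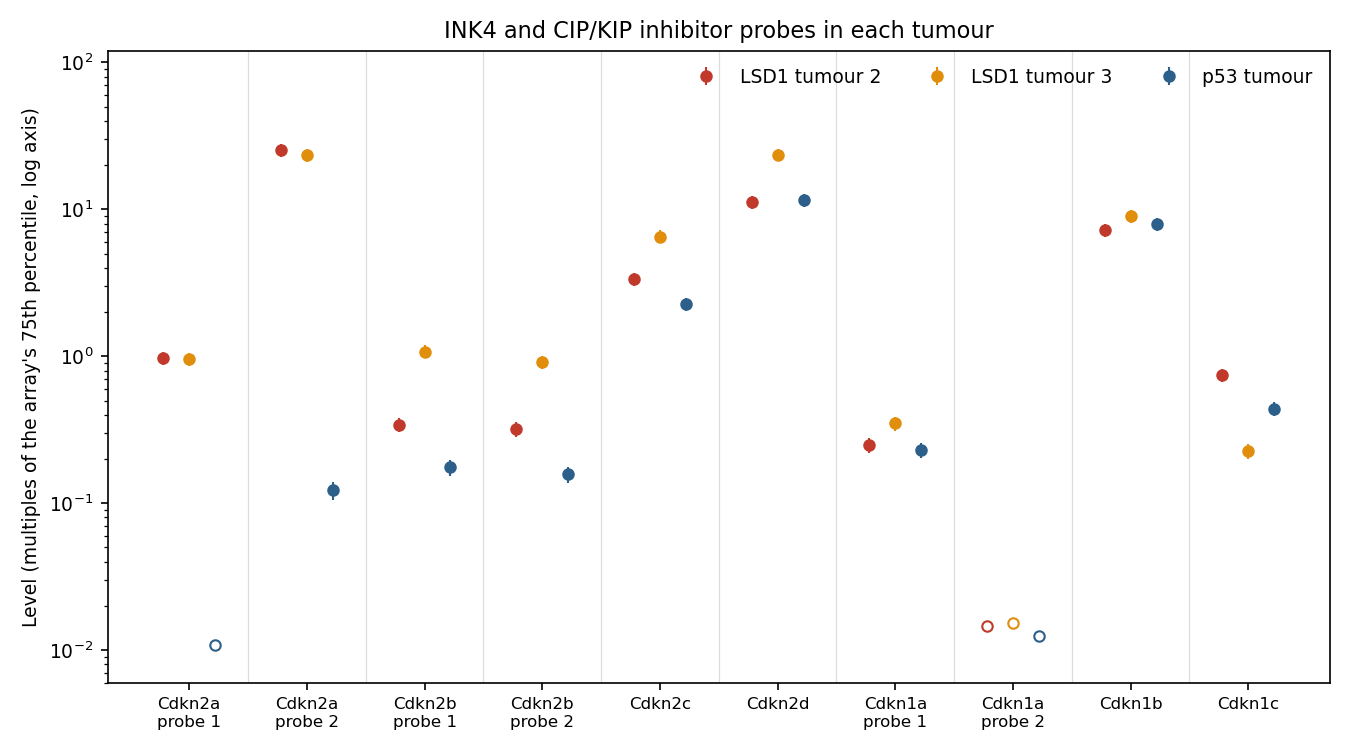
Level of each inhibitor probe in LSD1 tumour 2, LSD1 tumour 3 and the p53 tumour, as multiples of the array's 75th percentile on a log axis. Bars are the software's error for 1 spot, hollow points are not well above background, and heights may be compared within a probe only. Cdkn2a probe 2 is at 25.2 and 23.5 in the LSD1 tumours and 0.123 in the p53 tumour, while Cdkn1b stays within 7.23 to 9.01.

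Cdkn2b encodes p15INK4b, the INK4 protein induced by TGF-beta signalling, and lies next to Cdkn2a. Probe A_52_P498241 (NM_007670) measured 0.343 and 1.08 times the 75th percentile in LSD1 tumours 2 and 3, against 0.175 in the p53 tumour. Probe A_55_P1988183 measured 0.319 and 0.911, against 0.157. Both probes put LSD1 tumour 3 highest, LSD1 tumour 2 between and the p53 tumour lowest. The differences were 1.96-fold and 6.14-fold for the first probe and 2.03-fold and 5.79-fold for the second, so that in LSD1 tumour 2 the probes lay on either side of 2-fold. LSD1 tumour 3 was 3.14-fold and 2.85-fold above LSD1 tumour 2, and the mean log2 difference of 1.79 was 1.54 times the SD of that pair (1.17, n = 2).

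The gene order of the region allows Cdkn2a to be set beside its neighbours on chromosome 4. In the RefSeq annotation Mtap, a methionine salvage enzyme that is often lost together with Cdkn2a in human tumours, is the nearest coding gene on one side, and Cdkn2b and then Dmrta1 follow on the other. Mtap had intensities of 2221 and 1062 in LSD1 tumours 2 and 3, against 922 in the p53 tumour, or log2 differences of 1.04 and 0.34. Its value in LSD1 tumour 3 ranged from -0.03 to 0.53 over the scalings, so its direction there was not settled. Dmrta1 was not well above background on any array. The differences of Mtap and Cdkn2b were thus smaller than that of Cdkn2a in both LSD1 tumours.

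Cdkn2c encodes p18INK4c, an INK4 protein with a known part in lymphocyte differentiation. Its probe, A_51_P513719 (NM_007671), measured 3.36 and 6.53 times the 75th percentile in LSD1 tumours 2 and 3, against 2.28 in the p53 tumour. Both LSD1 tumours were higher, LSD1 tumour 3 the more so, and the differences were 1.48-fold and 2.87-fold with a spot error of 0.20 log2. The LSD1 tumours differed from each other by 1.94-fold. The mean log2 difference, 1.04, was 1.54 times the SD of the LSD1 pair (0.68).

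Cdkn2d encodes p19INK4d, which is not p19ARF despite the name. Probe A_55_P2022251 (NM_009878) measured 11.2 and 23.6 times the 75th percentile in LSD1 tumours 2 and 3, against 11.6 in the p53 tumour. LSD1 tumour 2 and the p53 tumour were within the spot error of each other (-0.05 log2), and LSD1 tumour 3 was higher than the p53 tumour by 2.03-fold and than LSD1 tumour 2 by 2.11-fold. The gap between the LSD1 tumours therefore exceeded the mean difference from the p53 tumour, 0.48 log2.

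Among the CIP/KIP genes, Cdkn1a encodes p21, a direct transcriptional target of p53. Probe A_51_P363947 (NM_007669) measured 0.249 and 0.350 times the 75th percentile in LSD1 tumours 2 and 3, against 0.230 in the p53 tumour. The 3 tumours were close, with differences of 1.08-fold, inside the spot error, and 1.52-fold. Over the scalings the difference of LSD1 tumour 2 ran from -0.10 to 0.15 log2. A second probe, A_55_P1986282, for transcript NM_001111099, was not well above background on any array and gives no fold.

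Cdkn1b encodes p27, whose level is set largely by protein turnover. Probe A_55_P2026562 (NM_009875) measured 7.23 and 9.01 times the 75th percentile in LSD1 tumours 2 and 3, against 7.94 in the p53 tumour. The p53 tumour lay between the LSD1 tumours, and both differences (-0.14 and 0.18 log2) were inside the spot error of 0.20.

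Cdkn1c encodes p57, an imprinted gene with a part in the quiescence of blood stem cells. Probe A_55_P2733752 (NM_001161624) measured 0.743 and 0.227 times the 75th percentile in LSD1 tumours 2 and 3, against 0.440 in the p53 tumour. The LSD1 tumours lay on opposite sides of the p53 tumour, LSD1 tumour 2 at 1.69-fold higher and LSD1 tumour 3 at 1.94-fold lower. They stood 3.27-fold apart from each other, with LSD1 tumour 2 above LSD1 tumour 3. This order of the LSD1 tumours is the reverse of that seen in Cdkn2b, Cdkn2c, Cdkn2d, Cdkn1a and Cdkn1b.

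Across the family, 1 of 7 members (Cdkn2a) was at least 2-fold higher in both LSD1 tumours than in the p53 tumour, where 3.48% of the 15240 genes tested were. No member was at least 2-fold lower in both, against 5.38% of genes. In LSD1 tumour 2 alone Cdkn2a was the 1 member at least 2-fold higher (11.7% of genes), and in LSD1 tumour 3 alone 4 members were, all INK4 genes (15.2% of genes). At least 2-fold lower were 0 members in LSD1 tumour 2 and 0 in LSD1 tumour 3 (11.5% of genes in each). Higher in both LSD1 tumours by any size were 4 members, Cdkn2a, Cdkn2b, Cdkn2c and Cdkn1a (38.9% of genes). Of these, Cdkn1a turned sign in LSD1 tumour 2 under other scalings. By probe 3 of the 10 passed 2-fold in both, and the second Cdkn1a probe, above background on no array, could not be called. The share was 3.63% of the 32889 probes above background on at least 1 array. Because the family was chosen on this contrast, nothing is read from these counts.

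The members' median difference was 0.56 log2 in LSD1 tumour 2 and 1.02 in LSD1 tumour 3, against 0.05 and 0.16 for all genes tested. Less those medians of all genes, Cdkn2a was at 7.62 and 7.41 log2, Cdkn2b at 0.92 and 2.46, Cdkn2c at 0.51 and 1.36, and Cdkn2d at -0.11 and 0.86. The CIP/KIP genes were at 0.06 and 0.44 for Cdkn1a, -0.19 and 0.02 for Cdkn1b, and 0.70 and -1.12 for Cdkn1c. In order of mean difference the family ran Cdkn2a, Cdkn2b, Cdkn2c, Cdkn2d, Cdkn1a, Cdkn1b and Cdkn1c, with 99.99%, 97.1%, 90.2%, 70.9%, 63.9%, 43.8% and 37.0% of genes below them. Steps between neighbours in this order were not tested. From Cdkn2b downward the order is not settled, since members were up to 1.71 log2 apart between the LSD1 tumours.

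**Figure D2:**
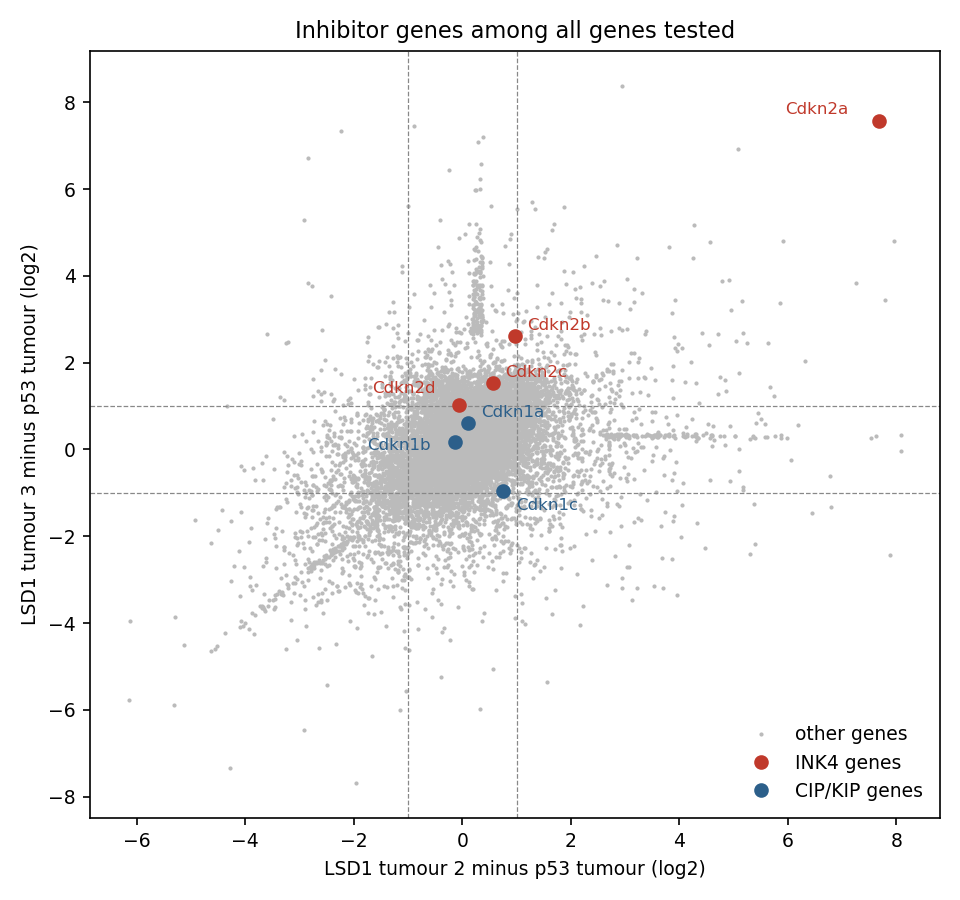
Log2 difference from the p53 tumour in LSD1 tumour 2 (horizontal) and LSD1 tumour 3 (vertical) for 15240 genes in grey, with the INK4 and CIP/KIP genes in colour and dashed lines at 2-fold. Cdkn2a lies at 7.68 and 7.57, the other INK4 genes lie above 1 on the vertical axis at this scaling, and Cdkn1c lies below 0 on it.

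The LSD1 tumours also differed from each other within the family. Cdkn2b, Cdkn2d and Cdkn1c, 3 of 7 members, were at least 2-fold apart between them, as were 25.1% of genes. The median size of the gap was 0.96 log2 for the members and 0.53 for all genes. Cdkn2a was the member with the smallest gap, 0.10 log2, and 11.0% of genes had a smaller one.

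The size of the members' differences depended on how the arrays were scaled to each other. Under the authors' own value table the median of all genes was -0.16 and -0.20 log2 in LSD1 tumours 2 and 3, against 0.05 and 0.16 with the 75th percentile, and the members shifted with it. Over the 6 scalings the brighter Cdkn2a probe stayed between 6.79 and 7.73 log2 in LSD1 tumour 2 and between 6.60 and 7.77 in LSD1 tumour 3. The brighter Cdkn2b probe stayed between 1.96 and 2.81 in LSD1 tumour 3 and Cdkn2c between 1.16 and 1.72. Cdkn2d in LSD1 tumour 3 ranged from 0.55 to 1.22 and passed 2-fold under 2 of the 6 scalings, so its place among the 4 depends on the scaling. Cdkn1c in LSD1 tumour 3 ranged from -1.32 to -0.74, and passed 2-fold lower under 2 of the 6. Cdkn1b in LSD1 tumour 3 turned sign, from -0.23 to 0.38.

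**Figure D3:**
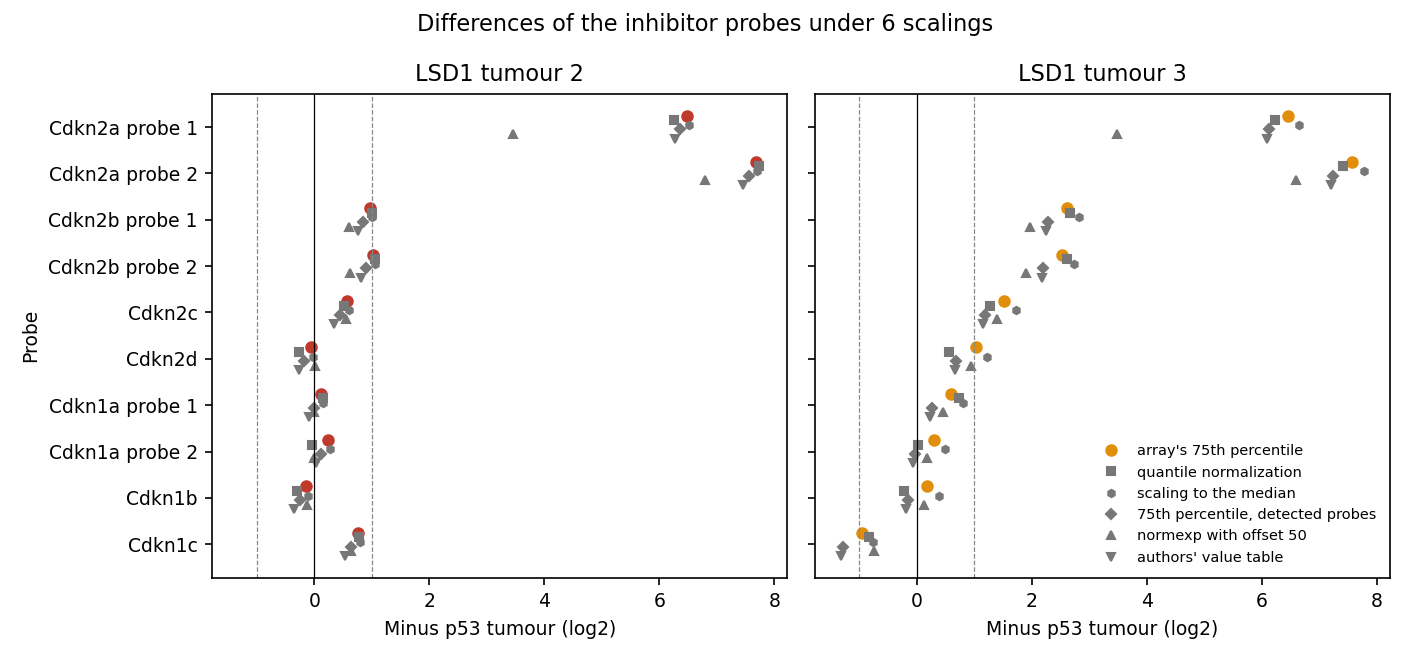
Log2 difference from the p53 tumour for each inhibitor probe in LSD1 tumour 2 (left) and LSD1 tumour 3 (right) under 6 scalings, with the 75th percentile in colour and dashed lines at 2-fold. Cdkn2a probe 1 drops to 3.46 and 3.47 with normexp, and the other probes move by less.

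limma over all 15240 genes called 0 genes (0%) at an adjusted p under 0.05, with 568 genes at an unadjusted p under 0.05 and a lowest adjusted p of 0.967. That fit had 1 residual degree of freedom and took the single p53 tumour to vary like the LSD1 pair. The count was 0 under every alternative it was run with, with 538 to 1756 genes at an unadjusted p under 0.05.

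The genes whose pattern was most like that of Cdkn2a were sought by Euclidean distance of the 2 log2 differences, among 12932 genes well above background in both LSD1 tumours. The nearest were Ccl8, a chemokine that draws monocytes (distance 2.68 log2), Lvrn, an aminopeptidase (2.78), Padi3, a peptidylarginine deiminase (3.30), Mc3r, a melanocortin receptor (3.77), and Dlk1, a membrane protein related to Notch ligands (4.13). Ccl8 had intensities of 1688 and 4723 in LSD1 tumours 2 and 3 and 42.8 in the p53 tumour, or 33.7-fold and 121-fold. The other 4 were not well above background in the p53 tumour, so their distances rest on a value near the floor. At this scaling Lvrn was at least 56.2-fold and at least 6.34-fold higher, and Padi3 at least 40.4-fold and at least 18.7-fold. Mc3r was at least 34.4-fold and at least 3.21-fold higher, and Dlk1 at least 54.6-fold and at least 2.69-fold. These bounds are for this scaling only, and with normexp the like bounds of the dimmer Cdkn2a probe did not hold. With only 2 differences to a gene, likeness here means size in both LSD1 tumours and nothing more.

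The genes around the inhibitors were read from 7 lists of 68 genes, 66 of them tested. Of these, 6 (9.09%) were at least 2-fold higher in both LSD1 tumours and 4 (6.06%) at least 2-fold lower, with median differences of 0.15 and 0.25 log2. Over the scalings these counts ranged from 4 to 9 and from 2 to 7, and none of the 3 genes of each list with the largest mean difference turned sign. Of all genes tested 3.48% were higher and 5.38% lower, so the lower share was close to that of all genes.

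Of the 10 kinases and cyclins that the inhibitors bind, 2 were at least 2-fold higher in both LSD1 tumours and 0 lower, with medians of 0.89 and 1.42 log2. Cdk1, the kinase of mitosis, had intensities of 3163 and 3968 in LSD1 tumours 2 and 3, against 1024 in the p53 tumour, or 2.64-fold and 4.25-fold. Cdk6, a target of the INK4 proteins, was not well above background in the p53 tumour and was at least 2.56-fold and at least 2.49-fold higher at this scaling, but differed by 0.65 and 0.67 log2 with normexp, which ends its 2-fold call. Ccne2, an E-type cyclin, was above background in LSD1 tumour 3 alone, at least 2.12-fold over the p53 tumour at this scaling and 0.65 log2 over it with normexp. Cdk4, the other target of the INK4 proteins, named after its values were seen, was 2.39-fold higher in LSD1 tumour 3 and fell just short of 2-fold in LSD1 tumour 2. Ccnd1, a D-type cyclin also named after its values were seen, differed by -1.32 and -0.69 log2. It was the 1 gene of the list lower in both LSD1 tumours by any size. The count at least 2-fold lower was 1 with the 75th percentile over detected probes and in the authors' table.

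Of the 8 RB and E2F genes, 1 was at least 2-fold higher in both LSD1 tumours and 0 lower, with medians of -0.08 and 1.14. E2f4, a partner of the RB-like proteins in resting cells, was 2.02-fold and 2.31-fold higher, and its lowest values over the scalings were 0.74 and 0.84 log2, under 2-fold. E2f3, an activating E2F, differed by 0.45 and 1.57, and Rbl2, which encodes the RB-like protein p130, by -0.71 and -1.13. Of the 6 genes of p27 turnover and transcription, 2 were higher and 0 lower, with medians of 0.72 and 0.91. Skp2, the ubiquitin ligase subunit that recognises p27, was 2.65-fold and 3.12-fold higher, and Cks1b, its cofactor, 2.38-fold and 3.10-fold. Foxo1, a transcription factor that activates Cdkn1b, differed by -1.37 and -0.94, while Cdkn1b itself differed by -0.14 and 0.18. With quantile normalization Foxo1 passed 2-fold lower in both LSD1 tumours (-1.53 and -1.24). It also did so with the 75th percentile over detected probes (-1.49 and -1.27) and in the authors' table (-1.59 and -1.30).

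Among the 6 genes of the ARF and p53 axis, 0 were at least 2-fold higher in both LSD1 tumours and 1 was lower, with medians of 0.12 and -0.14. Mdm4, an inhibitor of p53 related to MDM2, had intensities of 354 and 242 in LSD1 tumours 2 and 3 and 661 in the p53 tumour, 2.19-fold and 2.49-fold lower, and its least difference over the scalings was -0.79 log2 in LSD1 tumour 2. Its 4 probes were all lower, the least of them at -0.47 and -0.80 log2, under 2-fold. Npm1, the nucleolar protein that binds ARF, differed by 1.22 and 0.99 log2, and its 3 probes reached 2.52 and 1.81. Of 16 other p53 targets 14 were tested, with 0 higher and 1 lower, and medians of 0.12 and 0.13, close to those of all genes. Pmaip1, which encodes the pro-death protein NOXA, was the lower one, at -1.05 and -1.37, and at -0.97 in LSD1 tumour 2 with normexp, which ends the call. Plk2, a kinase, was at 0.71 and 1.36 and Sesn1, a stress-response protein, at -0.69 and -0.38. Together with Cdkn1a at 0.11 and 0.60, no tested p53 target in the list or the family was at least 2-fold higher in both LSD1 tumours. Of all genes tested 3.48% were, so a count of 0 among these few genes is near that share and nothing is read from it. At this scaling 6 of the 14 were higher in both by any size and 2 lower, against 5921 and 4234 of 15240 genes.

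Of 11 Polycomb genes known to repress Cdkn2a, 1 was at least 2-fold higher in both LSD1 tumours and 0 lower, with medians of 0.29 and 0.19. Ezh2, the histone methyltransferase of the complex, was 2.14-fold and 2.79-fold higher, with a lowest value of 0.88 log2 over the scalings in LSD1 tumour 2. Its 5 probes shared that direction, but the least of them were at 0.56 and 0.61 log2, under 2-fold. Suz12, its partner, differed by 0.77 and 0.57, and Cbx7, a reader of the mark, by -0.97 and -1.87. With quantile normalization Cbx7 passed 2-fold lower in both LSD1 tumours (-1.04 and -1.92). It also did so with the 75th percentile over detected probes (-1.09 and -2.21) and in the authors' table (-1.19 and -2.24). With detected probes and in the authors' table the Polycomb list had 0 higher and 1 lower. Of 11 other regulators of Cdkn2a and Cdkn2b, 0 were higher and 2 lower, with medians of -0.35 and -0.70. Tbx3, a repressor of the locus, had intensities of 93.8 and 52.6 in LSD1 tumours 2 and 3 and 233 in the p53 tumour, 2.91-fold and 4.04-fold lower. Id1, a repressor of p16INK4a, was 2.26-fold and 2.47-fold lower, and Kdm6b, a histone demethylase that acts on the locus, differed by -0.89 and -0.56.

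**Figure D4:**
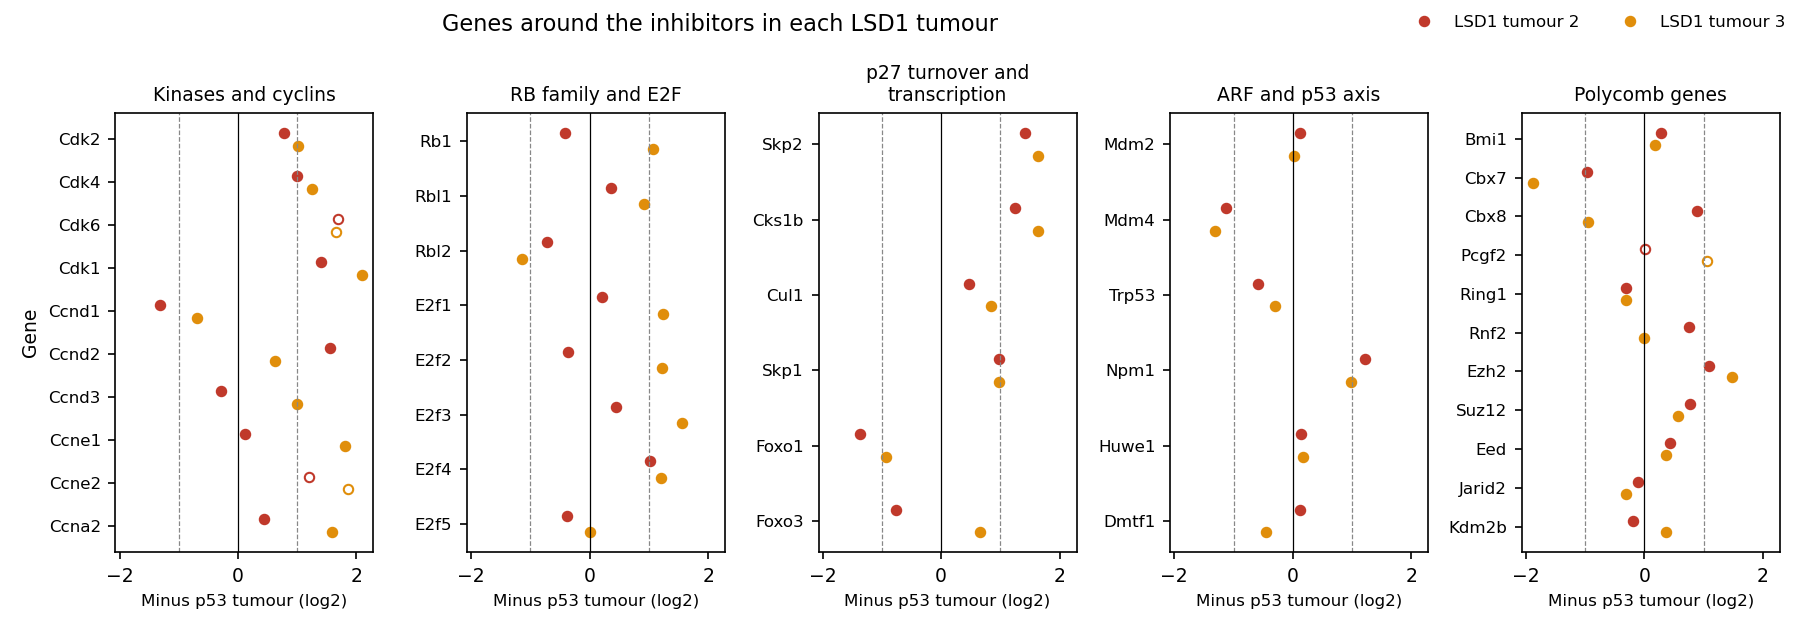
Log2 difference from the p53 tumour of the genes of 5 of the lists, 1 row per gene, with LSD1 tumour 2 drawn above LSD1 tumour 3 and dashed lines at 2-fold. Hollow points are not well above background in that LSD1 tumour or in the p53 tumour. Skp2, Cks1b and Cdk1 lie beyond the line in both tumours.

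Markers of cell types also differed between the tumours, and their part in the members' values was not tested. Markers of several blood lineages were measured on every array, and the labels do not say which lineage the tumours came from. Each list is given by its summed level in multiples of the 75th percentile, which its brightest gene can carry, and by its median log2 difference. At this scaling 3.48% of all genes tested were at least 2-fold higher in both LSD1 tumours and 5.38% lower. The 8 B cell genes summed to 39.8 and 141 in LSD1 tumours 2 and 3 and 266 in the p53 tumour (medians -2.66 and -1.14), with 0 at least 2-fold higher in both LSD1 tumours and 5 lower (4 to 7 over the scalings). The 10 T cell genes summed to 236 and 54.3 in the LSD1 tumours and 103 in the p53 tumour (medians 1.23 and -1.33, with 0 higher and 1 lower). All 8 B cell genes were lower in both LSD1 tumours by any size (7 when scaled to the median), as were 4234 of the 15240 genes tested. The T cell median lay on opposite sides of 0 in the LSD1 tumours. The 8 genes of neutrophils and precursors summed to 292, 272 and 145 in the same order (medians 1.32 and 1.26), with 6 higher (3 to 7 over the scalings) and 0 lower. The 8 macrophage genes summed to 181, 153 and 213 (medians -0.29 and -0.35, 0 higher and 0 lower), and the 7 endothelial and stromal genes to 6.46, 5.49 and 10.3 (medians -0.38 and -0.58, 0 higher and 1 lower). Single macrophage genes, named after their values were seen, moved more than that median. Marco, Timd4 and Siglec1 differed by 0.03, 1.10 and 0.58 log2 in LSD1 tumour 2. In LSD1 tumour 3 they were 7.43-fold, 15.4-fold and, at this scaling, at least 8.96-fold lower. Adgre1 differed by -1.61 and -0.09 log2 and Spic by -0.69 and 0.79.

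The 4 NK cell genes summed to 21.7 and 5.45 in LSD1 tumours 2 and 3 and 26.0 in the p53 tumour (medians -1.96 and -2.34), with 0 higher and 3 lower. The 5 dendritic cell genes summed to 138, 125 and 159 in the same order (medians -2.68 and -0.62), with 0 higher and 2 lower. Most of these sums came from Gzma, a granule protease, and Siglech, a receptor of plasmacytoid dendritic cells, both named after their values were seen. A second Siglech probe differed by -3.28 and -3.35 log2, against -0.18 and -0.33 for the one used. The 8 erythroid genes summed to 466, 875 and 618 (medians -0.37 and 1.63, 0 higher and 0 lower), and the 4 megakaryocyte genes to 22.0, 30.2 and 26.6 (medians -0.23 and 0.19, 0 higher and 0 lower). The 6 genes of dividing cells summed to 85.5, 188 and 60.1 (medians 0.88 and 1.78). By any size 6 of 6 were higher in both LSD1 tumours (5 with quantile normalization), where 38.9% of all genes were. Of them 2 were at least 2-fold higher in both (1 in the authors' table), and 0 were lower. At this scaling LSD1 tumour 3 was highest in the sums of the erythroid, megakaryocyte and dividing-cell lists. Its megakaryocyte median fell to -0.18 in the authors' table and to -0.15 with the 75th percentile over detected probes. Of the members, Cdkn2b, Cdkn2c, Cdkn2d, Cdkn1a and Cdkn1b were highest in LSD1 tumour 3 at this scaling, Cdkn1b within the spot error of the p53 tumour. A link between these was not tested. Fcer2a of the B cell list and Siglec1 of the macrophage list were not well above background in LSD1 tumour 3, and Ncr1 and Xcr1, of the NK and dendritic cell lists, in neither LSD1 tumour.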

How the data were processed

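Labelled RNA of each tumour was hybridised to 1 single-colour Agilent array. The authors deposited each scan as read by Agilent Feature Extraction (version 11.5.1.1, per the file headers), whose processed signal is a linear intensity that the software had corrected for background, without scaling between arrays. The authors also deposited a value table of the same intensities, each array multiplied by 1 factor (0.779, 0.902 and 1.06 for LSD1 tumours 2 and 3 and the p53 tumour, with column medians of 54.2, 43.5 and 64.2). What those factors were set on is not given in the sources used here.

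Intensities were divided by the array's 75th percentile and taken as log2. Outlier spots (113 to 128 per array) were left out and spots of 1 probe averaged. Names came from RefSeq accessions (GRCm38.p6, names and promoters only), which named 32987 of 56589 probes. A gene was its probe with the highest mean, tested if well above background on at least 1 array (12812 of 15240 genes were on all 3). A call is 2-fold from the p53 tumour in both LSD1 tumours, the brighter side being above background. A bound compares with the lowest intensity well above background on the dimmer array (49.2, 38.0 and 32.4 in the order above). limma 3.58.1 in R 4.3.3 (Benjamini-Hochberg) was fitted to all genes, and its p-values measure only the spread between these tumours. A run on simulated data, with the same noise for every gene, was checked only for its mean estimates, not for its calls.

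The members, lists and tests were chosen with earlier results of these data known. Named genes are the members, Kdm1a, Trp53, Mtap, Dmrta1, in each list the 3 genes whose mean difference is largest in size, and the 5 nearest to Cdkn2a. Alternatives were other scalings, normexp with an offset of 50 (on median pixel signals, the mean signal not being used here), other probe and background filters, the slide as a block and leaving out a tumour.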

Additional observations from a re-analysis of the deposited data

How the results depend on the processing

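With 1 p53 tumour, every difference rests on that array, and Cdkn2a there was near background. Cdkn2a kept its direction and its 2-fold call under every alternative run, its mean difference of 7.63 log2 becoming 7.74 when scaled to the median, 7.40 with the percentile over detected probes, 6.69 with normexp, 7.34 in the authors' table and 7.05 as the mean of its probes. The mean differences of Cdkn2b, Cdkn2c and Cdkn1a also stayed above 0 throughout. In LSD1 tumour 2 alone, Cdkn1a was above 0 under 3 of the 6 scalings and fell to -0.10 in the authors' table. Cdkn1b, 0.02, turned to -0.26 with quantile normalization, -0.20 with detected probes and -0.27 in the authors' table, and Cdkn1c, -0.10, to 0.014 when scaled to the median. Leaving out an LSD1 tumour gave -0.14 to 0.18 for Cdkn1b, -0.96 to 0.75 for Cdkn1c and -0.055 to 1.02 for Cdkn2d.

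Members at least 2-fold higher in both LSD1 tumours numbered 1, but 2 with quantile normalization. Counted in 1 LSD1 tumour alone, they numbered 1 without LSD1 tumour 3 and 4 without LSD1 tumour 2. The slide as a block leaves LSD1 tumour 3 against the p53 tumour, so its values here repeat those without LSD1 tumour 2. Members at least 2-fold lower stayed at 0. Over all genes 531 were higher and 820 lower (39.3% of calls higher). The higher count was 274 with detected probes, 323 with normexp, 219 in the authors' table, 2321 with the slide block and 1777 to 2321 without an LSD1 tumour. The lower count was 395 with normexp, 1266 in the authors' table, 416 for genes above background on all 3 arrays, 1749 with the slide block and 1749 to 1750 without an LSD1 tumour. The higher share was 19.2% with detected probes, 14.7% in the authors' table, 51.1% when scaled to the median, 51.8% above background on all arrays, 50.4% and 57.0% without LSD1 tumours 3 and 2, and 57.0% with the block. The block and the left-out tumour count on fewer arrays, and the cause of the other shifts was not tested. limma has no residual degrees of freedom with the slide block or without a tumour, so it gives no value there. No paired analysis was possible because the groups share no replicate number.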
